A study of Mus musculus with 12 samples.

Results

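The genes described here encode the rod phototransduction cascade downstream of light capture: the 3 subunits of rod transducin (Gnat1, Gnb1 and Gngt1), the 3 subunits of rod phosphodiesterase 6 (Pde6a, Pde6b and Pde6g), the 2 subunits of the rod cGMP-gated channel (Cnga1 and Cngb1) and arrestin-1 (Sag). They were chosen as a list of 9 symbols by their place in the pathway and not by their values, and were found among 54146 counted genes by their Ensembl IDs. All 9 were tested, because each had at least 25428 counts in every mouse and so passed the filter on low counts that kept 18628 genes.

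The study asked what the homeobox factor OTX2 does in mature photoreceptors, and it measured whole-retina mRNA of 12 mice, with 1 eye and 1 library per mouse. The 3 P30 control mice (numbered 1 to 3) are labelled as control with no allele named, and the methods place them 0 d after tamoxifen. The 9 conditional knockout (cKO) mice carried Crx-CreERT2, a tamoxifen-inducible Cre expressed from the promoter of the photoreceptor gene Crx, and Otx2 flox/flox, on a 129/SV background, and received a single tamoxifen injection at P30. They were killed 2 d later at P32 (mice 4 to 6), 4 d later at P34 (mice 7 to 9) or 8 d later at P38 (mice 10 to 12), so age, tamoxifen and deletion cannot be told apart in a comparison with P30. Recombination removes 1 coding exon of Otx2 in photoreceptors, while bipolar cells and the pigment epithelium keep the gene. The labels and the methods differ in the dose of tamoxifen per body weight, in the concentration of its stock and in the oil it was dissolved in.

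In a rod, the light-activated receptor exchanges the nucleotide on the transducin α subunit, which leaves its βγ partner and removes the inhibitory subunit from phosphodiesterase 6. The enzyme then hydrolyses cGMP, the cyclic nucleotide-gated channel of the outer segment closes and the cell hyperpolarizes. Arrestin-1 binds the phosphorylated receptor and ends the response. In bright light arrestin-1 and transducin move through the rod in opposite directions, and the study examined the movement of arrestin-1.

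OTX2 and its relative CRX share a DNA motif, TAATCC, so the 250 bases before the RefSeq transcription start (GRCm38.p6) were searched for it on both strands (TAATCC or GGATTA). Of the 9 genes, 6 were searched, and 4 of these 6 held the motif at least once, namely Sag, Cngb1, Cnga1 and Gngt1. Gnb1 and Pde6b held none, although Pde6b held the shorter TAATC. Gnat1 and Pde6g were not in the promoter table, and Pde6a was left out before the search. For comparison, 6.25% of 32851 promoter windows of the same length held TAATCC and 19.8% held TAATC, which includes every window with TAATCC. The 3 windows that follow are printed in the direction of transcription, in lower case with each match in capitals: Sag and Cngb1 as windows with the motif, and Gnb1, a gene read in many cell types, as a window without it. A match describes the letters alone.
Sag promoter, chr1:87803430-87803679, plus strand: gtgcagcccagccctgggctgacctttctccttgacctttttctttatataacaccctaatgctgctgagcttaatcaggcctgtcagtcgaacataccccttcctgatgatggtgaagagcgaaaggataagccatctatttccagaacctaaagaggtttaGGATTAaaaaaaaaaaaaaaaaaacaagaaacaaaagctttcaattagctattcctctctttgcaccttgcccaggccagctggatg
Cngb1 promoter, chr8:95306586-95306835, minus strand: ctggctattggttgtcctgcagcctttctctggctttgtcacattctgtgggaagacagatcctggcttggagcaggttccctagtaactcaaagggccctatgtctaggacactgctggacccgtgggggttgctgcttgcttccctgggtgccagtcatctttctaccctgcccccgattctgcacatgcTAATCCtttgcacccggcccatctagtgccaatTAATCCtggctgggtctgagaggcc
Gnb1 promoter, chr4:155491111-155491360, plus strand: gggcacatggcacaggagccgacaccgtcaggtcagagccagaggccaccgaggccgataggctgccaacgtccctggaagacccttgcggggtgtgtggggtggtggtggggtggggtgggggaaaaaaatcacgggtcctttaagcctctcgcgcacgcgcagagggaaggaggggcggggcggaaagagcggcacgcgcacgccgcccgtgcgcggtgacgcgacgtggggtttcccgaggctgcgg
The match in Sag began 87 bases before the start and those in Cngb1 began 58 and 25 bases before it. In the windows of Gngt1 and Cnga1, which are not printed because they overlap annotated exons, the match began 44 and 228 bases before the start.

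Libraries held 29701483 to 60145034 counts on genes. Otx2 itself, counted over the whole gene, was at 293 to 328 CPM (gene counts relative to the library total, scaled by edgeR's TMM factors) in the P30 mice and at 307 to 377 CPM in the 9 cKO mice. That count includes the exons left after recombination and the other cells that express Otx2, so it does not check the deletion. The rod markers Nrl, Nr2e3, Rom1 and Nxnl1 together were at 5314 to 5749 CPM at P30 and at 5075 to 7870 CPM in the cKO mice, so rods were present in every sample. The 3 P30 mice and 4 of the 9 cKO mice had the Xist level of females, so sex was not balanced over the groups. The 5 lens markers summed to a median of 362 CPM in the P34 mice, against 7778 CPM at P30, 21888 CPM at P32 and 3894 CPM at P38. The 4 of 5 smooth muscle markers that were tested summed to 28.8 to 196 CPM at P30 and 9.06 to 47.3 CPM in the cKO mice. Whether these differences came from neighboring tissue carried along unequally or from the deletion was not tested. Their part in the results below was not tested either.

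The 9 genes together took 3.61 to 3.99% of all gene counts in the P30 mice, 3.39 to 3.91% at P32, 3.86 to 4.75% at P34 and 3.83 to 5.12% at P38. By CPM in the P30 mice Gnat1 ranked 2 among all genes, Sag 4, Gnb1 8, Pde6g 12, Pde6b 13 and Pde6a 16, while Gngt1 ranked 48, Cngb1 66 and Cnga1 69.

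Levels were compared between genes only per length, as CPM per kilobase of annotated exon, mean ± SD of the 3 P30 mice. Gnat1 was highest at 4110 ± 219, above Gnb1 at 1268 ± 83.7, Pde6g at 1228 ± 59.7 and Sag at 889 ± 163. The catalytic subunits were level, Pde6b at 548 ± 30.3 and Pde6a at 547 ± 51.8, followed by Gngt1 at 359 ± 35.3. The channel subunits came last, Cnga1 at 149 ± 6.56 and Cngb1 at 106 ± 7.74. The ranges of Gnb1 and Pde6g overlapped between mice, as did those of Pde6b and Pde6a, and the ranges of the other neighbors in this order did not. The order depended on the length used: with the median length of the CCDS transcripts Sag followed Gnat1, at 4604 against 5348 CPM per kilobase, and Gngt1 stood above both catalytic subunits at 1067 ± 105. With the longest transcript Sag stood above Pde6g, at 1674 against 1265 CPM per kilobase, and the other 7 genes kept their places. The catalytic subunits were level by exon length only. Pde6b stood above Pde6a without overlap by the longest transcript (673 against 559) and by the CCDS length (983 against 559). Gnat1 in first place and the channel subunits in the last 2 places were common to the 3 lengths.

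**Figure D1:**
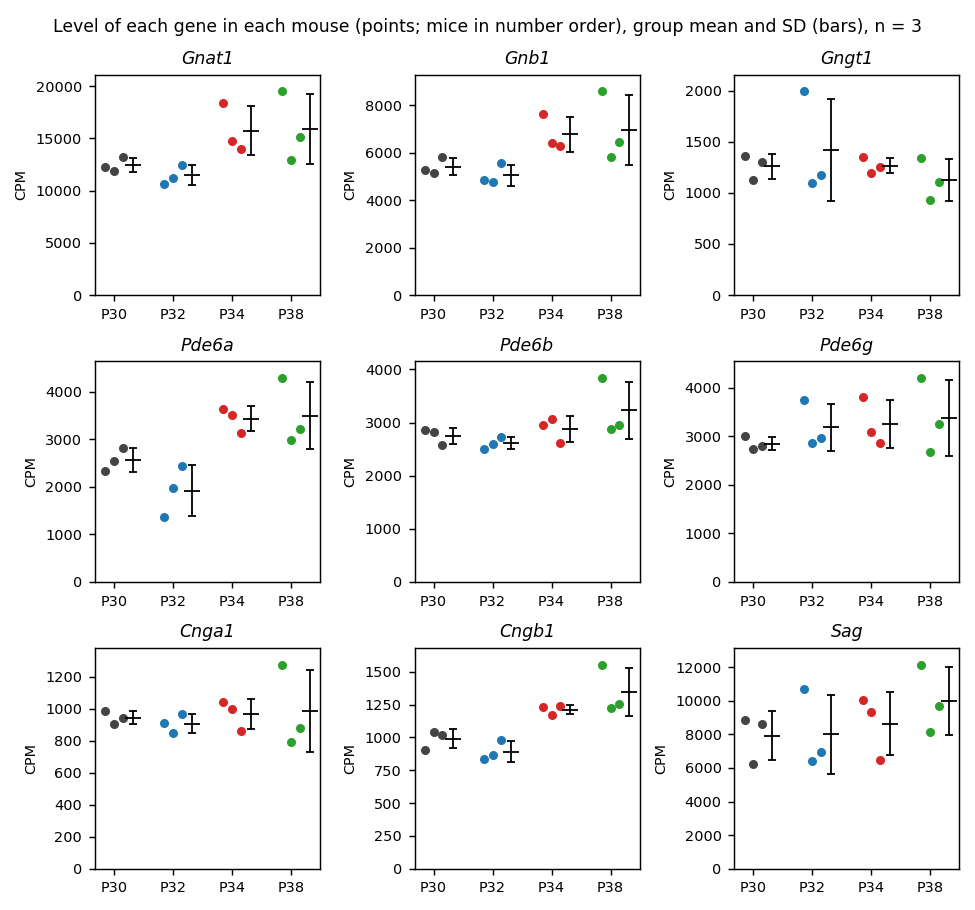
Level of each of the 9 genes in CPM (vertical axis, from 0) in each of the 12 mice, by group (horizontal axis). Points are mice in number order and bars give the group mean and SD (n = 3). Mouse 10, the first P38 point, is the highest of all in 8 of the 9 genes, and in Gngt1 the highest is mouse 4, the first P32 point, at 2000 CPM.

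Transducin carries the signal from the receptor to the phosphodiesterase. Gnat1 (chr9:107674474-107679712, minus strand), which encodes the rod α subunit, was at 12237, 11918 and 13194 CPM in P30 mice 1 to 3, at 10635, 11234 and 12493 CPM in P32 mice 4 to 6, at 18408, 14766 and 13996 CPM in P34 mice 7 to 9 and at 19548, 12948 and 15129 CPM in P38 mice 10 to 12. The P34 mice all lay above the P30 mice, whereas the P32 and the P38 values overlapped those of P30. Gnb1 (chr4:155491361-155559269, plus strand), the β1 subunit that rods use and many other cells also express, was at 5287, 5131 and 5813 CPM at P30, at 4842, 4767 and 5561 CPM at P32, at 7629, 6415 and 6309 CPM at P34 and at 8617, 5809 and 6455 CPM at P38. It followed the same order of mice as Gnat1 in its high values, with mouse 10 and then mouse 7 highest in both genes. Gngt1 (chr6:3993792-3997436, plus strand), the rod γ subunit, was at 1361, 1122 and 1303 CPM at P30, at 2000, 1100 and 1172 CPM at P32, at 1348, 1200 and 1251 CPM at P34 and at 1347, 933 and 1109 CPM at P38. Its highest value was in mouse 4, where Gnat1 had its lowest, and all its groups overlapped the P30 mice.

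None of the transducin genes passed the test at any age. For Gnat1 the fitted log2 difference from P30 was −0.12 at P32, 0.34 at P34 and finally 0.35 at P38 (SE 0.18 each), and edgeR's quasi-likelihood test gave adjusted p of 0.824, 0.548 and 0.847. The 95% interval at P38 reached from −0.05 to 0.75, or from 0.968-fold to 1.68-fold. Gnb1 had nearly the same values, −0.10, 0.33 and 0.36. For Gngt1 the log2 fold changes were 0.17, 0.00 and −0.16 (SE 0.22 each), with intervals of −0.30 to 0.65, −0.47 to 0.48 and −0.63 to 0.31, and the sign at P34 turned with library totals as the scaling and with a term for sex. Without mouse 4 the value of Gngt1 at P32 was −0.15.

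Phosphodiesterase 6 is the effector, with a catalytic pair, α (Pde6a) and β (Pde6b), held by the inhibitory γ (Pde6g). Pde6a, on chromosome 18, was at 2327, 2553 and 2812 CPM at P30, at 1362, 1973 and 2429 CPM at P32, at 3643, 3514 and 3143 CPM at P34 and at 4296, 2975 and 3216 CPM at P38. This gene had the widest range of the 9, 3.15-fold between mouse 4 and mouse 10, and its P34 and P38 mice all lay above the P30 mice. Pde6b (chr5:108388391-108432397, plus strand) was at 2854, 2825 and 2577 CPM at P30, at 2501, 2602 and 2728 CPM at P32, at 2947, 3074 and 2615 CPM at P34 and at 3845, 2887 and 2955 CPM at P38. It was the steadiest gene, with a range of 1.54-fold over the 12 mice, and its P38 mice lay just above the P30 mice. Pde6g (chr11:120447605-120453500, minus strand) was at 3002, 2737 and 2800 CPM at P30, at 3734, 2859 and 2958 CPM at P32, at 3811, 3093 and 2857 CPM at P34 and at 4203, 2674 and 3244 CPM at P38. At each cKO age 1 mouse stood at 3734 to 4203 CPM and the others at 2674 to 3244 CPM, and every age overlapped P30.

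None of the phosphodiesterase genes passed the test against P30. Pde6a had a log2 fold change of −0.42 (95% interval −0.87 to 0.04) 2 d after tamoxifen, of 0.42 (−0.03 to 0.88) after 4 d and of 0.45 (−0.01 to 0.90) after 8 d, with edgeR quasi-likelihood adjusted p of 0.698, 0.514 and 0.847. Without mouse 4 the value of Pde6a at P32 was −0.22, and without mouse 6 it was −0.62. For Pde6b the values were −0.08, 0.06 and 0.23, and at P38 the interval was −0.08 to 0.54. For Pde6g they were 0.16, 0.19 and 0.25, with an interval of −0.16 to 0.65 at P38.

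The cyclic nucleotide-gated channel carries the current that light turns off. Cnga1 (chr5:72603696-72644275, minus strand), its α subunit, was at 988, 905 and 942 CPM at P30, at 908, 850 and 966 CPM at P32, at 1043, 997 and 861 CPM at P34 and at 1276, 795 and 881 CPM at P38. Apart from mouse 10 its values stayed within 795 to 1043 CPM, and all ages overlapped P30. Cngb1 (chr8:95239045-95306585, minus strand), the β subunit, was at 907, 1045 and 1015 CPM at P30, at 833, 864 and 980 CPM at P32, at 1228, 1170 and 1240 CPM at P34 and at 1555, 1221 and 1258 CPM at P38. All 6 mice of P34 and P38 lay above the 3 P30 mice.

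Cngb1 came nearest to the threshold against P30 but did not pass it. Its log2 fold changes at the 3 ages were −0.15, 0.29 and 0.44 (SE 0.13 each), and the 95% intervals were 0.01 to 0.57 at P34 and 0.16 to 0.72 at P38. The p-values before adjustment were 0.0414 at P34 and 0.00493 at P38, and the edgeR quasi-likelihood p adjusted over all tested genes was 0.459 and 0.813. For Cnga1 the values were −0.06, 0.03 and 0.06 (SE 0.17 each), with an interval of −0.30 to 0.42 at P38, and both positive signs turned with library totals as the scaling and with a term for sex.

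Sag (chr1:87803680-87845158, plus strand), arrestin-1, was at 8876, 6246 and 8618 CPM at P30, at 10693, 6395 and 6936 CPM at P32, at 10048, 9344 and 6503 CPM at P34 and at 12154, 8120 and 9673 CPM at P38. It varied within every group, including the controls, where mouse 2 had the lowest value of all 12 mice, and each age overlapped P30. For Sag the log2 fold change was 0.02 (95% interval −0.53 to 0.57) 2 d after tamoxifen, 0.13 (−0.42 to 0.68) after 4 d and 0.34 (−0.22 to 0.89) after 8 d, with edgeR quasi-likelihood adjusted p of 0.986, 0.909 and 0.852. These were the least precise of the 9 estimates (SE 0.25), so a change of Sag of up to 1.85-fold at P38 lay within the interval. With a term for sex the values of Sag at P32 and P34 turned to −0.16 and −0.19, and the value at P38 fell to 0.05. Without mouse 4 the value at P32 was −0.25.

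**Figure D2:**
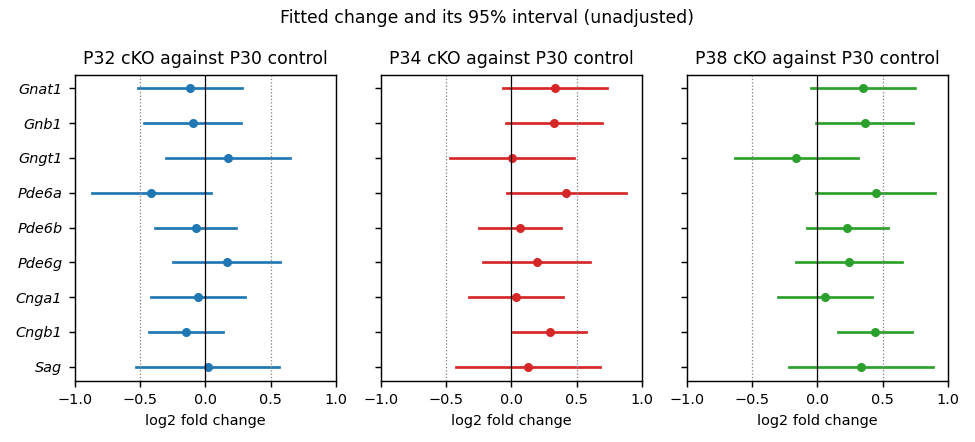
Fitted log2 fold change of each gene against the P30 mice at P32, P34 and P38 (points) with unadjusted 95% intervals (lines), from 1 edgeR fit of 12 mice. The dotted lines mark a log2 fold change of 0.5 in either direction. All intervals but those of Cngb1 at P34 and P38 include 0, and no gene passed the adjusted test.

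Counted over the list, 0 of the 9 genes were called against P30 at P32, P34 or P38, where a call needed a Benjamini-Hochberg adjusted p from edgeR's quasi-likelihood test no higher than 0.05 together with a log2 change of 0.5 or more up or down. Of all 18628 genes tested, 0% were called higher at each age, and 0.66% were called lower at P34 and 0% at the other ages. When p was left unadjusted (0.05 or less, any fold), 0 genes of the list were counted at P32, where 3.09% of all genes were lower and 2.55% higher. Cngb1 alone was counted as higher at P34, where 3.4% of all genes were, and at P38, where 1.82% were, and none of the 9 as lower, against 7.06% and 3.82% of all genes. DESeq2's Wald test, run without the filter on low counts, called 0 of the 9 at each age. Of 33959 genes it called 0.0501%, 1.02% and 0.106% lower and 0.0294%, 0.0412% and 0.0324% higher at the 3 ages in turn.

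The groups did not overlap, all 3 cKO mice above all 3 P30 mice, for 4 genes at P34 (Gnat1, Gnb1, Pde6a and Cngb1; 10.4% of all genes tested), for 3 genes at P38 (Pde6a, Pde6b and Cngb1; 8.23%) and for none at P32 (5.26%). No gene of the list had all its cKO mice below P30, against 4.39%, 9.67% and 7.96% of all genes at the 3 ages. The median log2 fold changes of the 9 genes at the 3 ages were −0.08, 0.19 and 0.34, beside −0.01, 0.00 and −0.01 over all genes. All 9 were above 0 at P34, as were 49.8% of all genes, and 8 at P38 (48.2%), and with a term for sex Gngt1, Pde6b, Cnga1 and Sag were below 0 at P34. In bulk retina a different number of rods and a different amount of RNA per rod cannot be told apart. Marker sums of some other cells were higher at P34 and P38 too, but only the microglia range at P38 lay wholly above P30. The 5 ganglion cell markers summed to 615 to 883 CPM at P30, 653 to 789 CPM at P32, 839 to 1186 CPM at P34 and 880 to 1125 CPM at P38. The 4 microglia markers summed to 21.7 to 24.6, 18.0 to 23.8, 23.5 to 32.6 and 26.8 to 32.6 CPM. Among these, Aif1 had a lower mean at P34 (0.55 CPM) than at P30 (0.90 CPM). At P30, P34 and P38 the mean sums were 1315, 1279 and 1332 CPM for bipolar markers and 1231, 1316 and 1123 CPM for amacrine markers. For Müller glia markers they were 3376, 3520 and 3132 CPM. The part of these cells in the result was not tested.

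With the 9 cKO mice taken as one group the log2 fold changes were 0.01 to 0.22 (with a term for sex, since all P30 mice had the Xist level of females, −0.12 for Gngt1, −0.10 for Sag, −0.09 for Cnga1, −0.01 for Pde6b and 0.07 to 0.13 for the other 5 genes), with 95% intervals that together spanned −0.39 to 0.79, and 0 of the 9 genes were called by edgeR or by DESeq2, or counted with p left unadjusted. Of all genes tested, edgeR called 0.0537% lower and 0% higher, and 2.16% were lower and 0.467% higher with p left unadjusted. DESeq2 called 0.147% of 33932 genes lower and 0.0118% higher. None of the 9 genes separated all 9 cKO mice from the controls, which 0.478% of all genes did downward and 0.123% upward.

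Pde6a, Cngb1, Gnat1 and Gnb1 had larger estimated log2 fold changes at P34 and P38 against P32 than against P30, and edgeR's adjusted test called none of them. The later ages stood above P32 in Pde6a, by a log2 fold change of 0.84 (95% interval 0.38 to 1.30) at P34 and of 0.86 (0.41 to 1.32) at P38, with edgeR quasi-likelihood adjusted p of 0.0948 and 0.114. In Cngb1 the differences were 0.44 (0.16 to 0.72) and 0.59 (0.31 to 0.87), with adjusted p of 0.0962 and 0.114, and in Gnat1 and Gnb1 they were 0.42 to 0.47. Gngt1 went the other way, at −0.17 and −0.33, and the intervals of both included 0.

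Of the 9 genes 0 were called between P34 and P32, where edgeR called 0.242% of all genes lower and 0% higher at P34, and 0 between P38 and P32, where it called 0% in either direction. With p left unadjusted at 0.05 or less, Gnat1, Gnb1, Pde6a and Cngb1 were higher in both comparisons, as were 13.5% of all genes tested at P34 and 12.3% at P38, and 1 of the 4 (Pde6a) and 2 (Pde6a and Cngb1) also reached a log2 change of 0.5, beside 5.49% and 5.68% of all genes. None of the 9 was lower by the unadjusted p, against 13.3% and 10.9% of all genes. The groups did not overlap for the same 4 genes at P34 (14.8% of all genes) and for these and Pde6b at P38 (13.3%), always above P32, and for none of the 9 below it (13.6% and 13.2%). DESeq2's Wald test, which is the tool the study used, called Pde6a higher at P34 (1.7% of 33959 genes) and Pde6a and Cngb1 higher at P38 (1.45%). It called none of the 9 lower (2.44% and 1.23%). Without mouse 4, the P32 mouse with the lowest values of both genes, the log2 fold change of Pde6a became 0.64 at P34 and 0.67 at P38 and edgeR called neither gene, with adjusted p of 0.234 to 0.255. Without mouse 6, the P32 mouse with the highest values, edgeR called both genes in both comparisons, with adjusted p of 0.0148 to 0.0304. In that fit 7.43% of all genes were called higher and 6.87% lower at P34, and 6.52% higher and 3.69% lower at P38.

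Between P38 and P34 the log2 fold changes were −0.16 to 0.21, and 0 of the 9 genes were called by edgeR or DESeq2, or counted with p left unadjusted. Of all genes tested, edgeR called 0% lower and 0.199% higher, and the unadjusted p counted 1.58% and 3.5%. DESeq2 called 0.0206% of 33959 genes lower and 0.412% higher. None of the 9 separated these ages, which 4.58% of all genes did downward and 5.36% upward.

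Mouse 4 stood apart in how its counts were spread over genes of different length. Over 8968 genes, the slope of a gene's log2 deviation from its mean over the 12 mice against the log2 of its exon length was −0.36 in mouse 4 and lay between −0.07 and 0.14 in the other 11 mice, so longer genes were low and shorter ones high in that library. In mouse 4 Pde6a was 1.01 below its mean on the log2 scale and Cngb1 0.39 below, and these have 4688 and 9355 exon bases. Gngt1, with 3515 exon bases, was 0.68 above its mean and Pde6g, with 2317, was 0.25 above. For the rest of the list the direction depended on the length used. By CCDS length Pde6g, Gngt1 and Sag were the shortest (900, 1183 and 1719 bases) and lay above their means. The longer genes, from Gnat1 (2328 bases) to Pde6a (4588 bases), all lay below theirs, though not in strict order of length. By exon length Gnat1, Gnb1, Pde6b, Cnga1 and Sag ran against the slope of the library, with longer genes higher. Sag, with 8904 exon bases (1719 in its CCDS transcript), was 0.34 above its mean, Gnat1, with 3029, was 0.36 below, and Cnga1, with 6327, was 0.06 below. Gnb1, with 4268, and Pde6b, with 5026, were 0.30 and 0.19 below. With a correction for this trend, added after the data were seen, Pde6a remained 0.81 above P32 at P34 and 0.85 above it at P38, while Cngb1 went from 0.44 to 0.22 at P34 and from 0.59 to 0.37 at P38, and edgeR called neither (adjusted p 0.0903 to 0.277).

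Mouse 10 was highest in 8 of the 9 genes, by 0.42 to 0.65 above their means on the log2 scale, and in Gngt1 it was 0.11 above. It also had the highest sum of the 4 rod markers, 7870 CPM. With mouse 7 it had the lowest shares of tallied alignments on no gene, 7.53% and 6.53% against 8.67 to 13.7% in the other 10 mice. Without mouse 10 the log2 fold change at P38 against P30 fell for each gene, to 0.18 for Gnat1, 0.19 for Gnb1, 0.28 for Pde6a, 0.10 for Pde6b, 0.07 for Pde6g, 0.33 for Cngb1, 0.18 for Sag, −0.16 for Cnga1 and −0.30 for Gngt1. Without mouse 7, the highest P34 mouse in all genes of the list but Pde6b and Cngb1, the values at P34 were 0.37 for Pde6a, 0.28 for Cngb1, 0.20 for Gnat1, 0.23 for Gnb1, 0.06 for Pde6g, 0.04 for Pde6b, −0.01 for Sag, −0.03 for Cnga1 and −0.05 for Gngt1. The part of these library properties in the levels of the 9 genes was not tested.

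**Figure D3:**
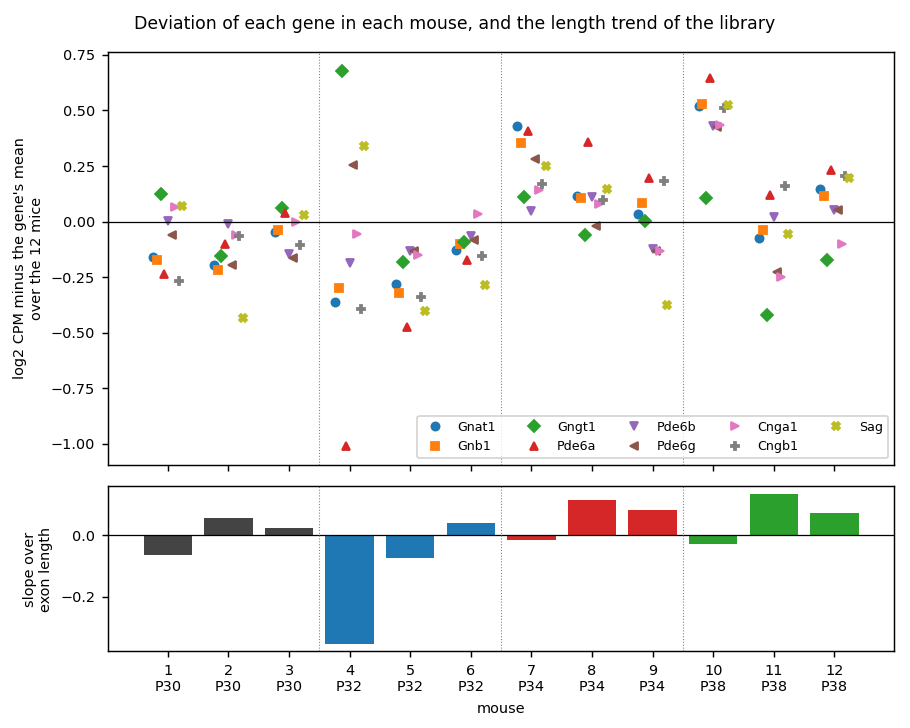
Upper panel, log2 CPM of each gene in each mouse minus the gene's mean over the 12 mice. Lower panel, slope of all genes' deviations over log2 exon length in the same library, colored by group. Mouse 4 has the steepest slope, −0.36, with Pde6a lowest and Gngt1 highest, and mouse 10 has all 9 genes above 0.

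As a description over the 12 mice, the closest pair in the list was Gnat1 and Gnb1 (Pearson r of log2 CPM 0.99) and the least alike were Gngt1 and Pde6a (r −0.45). Among 8961 other genes, 9 of the 10 whose log2 CPM was most like the mean pattern of the list were Prph2 (r 0.97), which encodes a structural protein of the outer segment disc rim, Erlec1 and Copb2 (both 0.96), Arhgap24 (0.95), Cops2, Fam3c, Adipor1, Cadm1 and Mapkap1 (all 0.94), against a median r of 0.15. These values share the libraries and their scaling, and the high values of mice 7 and 10 weigh in each of them.

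Ratios of 2 genes within a library need no scaling between libraries, and 5 were taken between partners. The log2 ratio of Gngt1 to Gnat1 was −3.17, −3.41 and −3.34 in the P30 mice, −2.41, −3.35 and −3.41 in the P32 mice, −3.77, −3.62 and −3.48 in the P34 mice and −3.86, −3.79 and −3.77 at P38. The 6 mice of P34 and P38 lay below the 3 P30 mice, and mouse 4 lay above all the others. The mean of the 9 cKO mice was 0.19 lower than that of the P30 mice (exact two-sided permutation p = 0.464, Benjamini-Hochberg adjusted p over the 5 ratios 0.773).

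The log2 ratio of Cnga1 to Cngb1 was 0.12, −0.21 and −0.11 at P30, 0.13, −0.02 and −0.02 in the P32 mice, −0.24, −0.23 and −0.53 in the P34 mice and −0.28, −0.62 and −0.51 at P38, again with all 6 mice of P34 and P38 below P30. The log2 ratio of Pde6a to Pde6b was −0.29, −0.15 and 0.13 at P30, −0.88, −0.40 and −0.17 in the P32 mice, 0.31, 0.19 and 0.27 in the P34 mice and 0.16, 0.04 and 0.12 at P38. Here the P34 mice lay above P30 and the P32 and P38 mice overlapped it. How often the ratios of other gene pairs separate the ages in this way was not counted. Over the 9 cKO mice the differences from P30 were −0.19 for Cnga1 to Cngb1 and 0.07 for Pde6a to Pde6b, with exact two-sided permutation p of 0.291 and 0.736, and with 0.12 for Pde6g to Pde6b (exact p = 0.364) none passed adjustment.

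Arrestin-1 and transducin move in opposite directions in light. The log2 ratio of Sag to Gnat1 was −0.46, −0.93 and −0.61 at P30, 0.01, −0.81 and −0.85 in the P32 mice, −0.87, −0.66 and −1.11 in the P34 mice and −0.69, −0.67 and −0.65 at P38. Except for mouse 4 the cKO mice lay around the controls, and the 3 P38 mice were close to each other. The difference of the 9 cKO mice from P30 was −0.03 (exact two-sided permutation p = 0.791, adjusted p 0.791), with an SD of 0.24 among the P30 mice and of 0.30 among the cKO mice. An exact two-sided permutation test of 3 against 3 mice can reach a p of 0.1 at the lowest, so single ages were not tested.

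Each gene was also set against its cone counterpart, 9 ratios in all, to ask whether the rod cascade differed from the most similar genes. The log2 ratio of Gnat1 to Gnat2, the cone transducin α subunit, was 5.71 ± 0.17 (SD, n = 3) in the P30 mice, 5.29, 5.69 and 5.82 in the P32 mice, 5.94 ± 0.04 at P34 and 5.93 ± 0.04 at P38, that is 52.2 rod counts for each cone count in the P30 mice and 56.6 in the cKO mice. The ratio of Cngb1 to the cone channel gene Cngb3 was 4.87 ± 0.13 at P30 and 5.06 ± 0.19 (SD, n = 9) in the cKO mice, a difference of 0.18 with the lowest p of the 9 (exact two-sided permutation p = 0.164, adjusted p 0.75). The other differences ran from −0.04 for Gngt1 to Gngt2 to 0.34 for Pde6a to Pde6c, and with exact adjusted p of 0.75 to 0.955 none passed. Pde6c was at 30.4 to 80.9 CPM. Its ratios had an SD of 0.55 to 0.72 among the P30 mice and were the least precise by this measure.

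**Figure D4:**
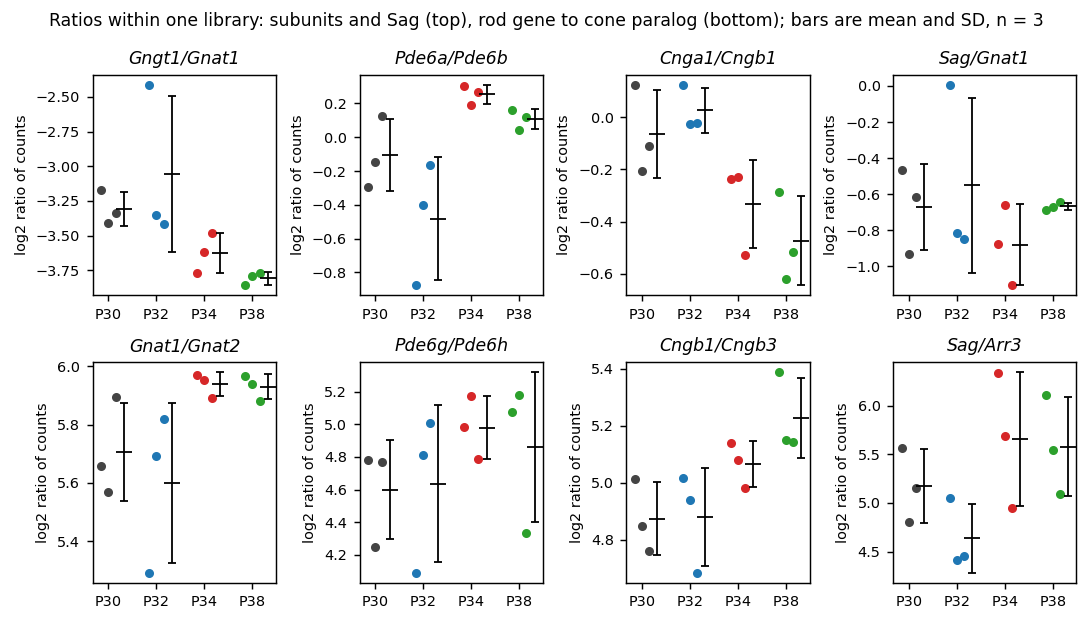
Log2 ratio of the counts of 2 genes in each mouse (vertical axes, each with its own range), by group. The upper row shows 4 ratios between partners of the rod cascade and the lower row 4 ratios of a rod gene to its cone paralog. Points are mice, and bars the group mean and SD (n = 3). Mouse 4 is the first P32 point, and in the ratios of Gngt1 to Gnat1 and of Cnga1 to Cngb1 the P34 and P38 mice lie below the P30 mice.

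Of 14 other genes of the rod photoresponse, among them the shut-off genes Grk1, Rcvrn and Rgs9 and the cGMP synthesis genes Guca1a, Gucy2e and Gucy2f, edgeR and DESeq2 called 0 against P30 at any age. Their median log2 fold changes at the 3 ages were −0.14, 0.14 and 0.20, with 14 of 14 above 0 at P34 (49.8% of all genes) and at P38 (48.2%). With p left unadjusted, 0 were counted at P32 and P34 and 2 at P38, where 1.82% of all genes were higher, Slc24a1 (the rod sodium, calcium and potassium exchanger) at 0.49 and Gucy2e (a retinal guanylate cyclase) at 0.49. Mouse 4 had 35.0 CPM of Gucy2f against 135 to 409 CPM in the other mice, and it was also lowest in Rgs9, which ranged from 94.1 to 367 CPM in the others.

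Of 10 cone genes, both tools called 0 against P30 at any age, and their medians were 0.03, 0.06 and 0.03. With p left unadjusted 2 were counted at P32, 1 lower and 1 higher (3.09% and 2.55% of all genes), and 0 at P34 and P38. The 4 regulators Otx2, Crx, Nrl and Nr2e3 had log2 fold changes of −0.35 to 0.27 over the 3 ages, and both tools called 0 of them against P30, with 0 counted when p was left unadjusted. Against P32, edgeR called 0 genes of these 3 lists, and DESeq2 called some of each, as it did in the cascade. Of 33959 genes, DESeq2 called 1.7% higher and 2.44% lower at P34, and 1.45% higher and 1.23% lower at P38. The DESeq2 calls of these lists were not repeated with single mice left out. Of the 14 rod genes, 2 were higher at P34, among them Slc24a1, and 4 at P38, among them Slc24a1, Gucy2e and Rgs9 (which speeds the shut-off of transducin). Of the 10 cone genes, Opn1sw (the short-wavelength cone opsin) was called higher at both ages and Arr3 (cone arrestin) lower at P34. Of the 4 regulators, Nr2e3 was higher at both ages.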

How the data were processed

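Per the labels and the study's methods, the authors made stranded poly(A) libraries, sequenced single 50-base reads, aligned these to the mm10 build (STAR 2.5.3a) and assigned them to Ensembl 93 genes (HTSeq 0.6.1p1, union mode). The authors deposited raw counts per gene and mouse, without normalization. Alignments that were not unique (23.7 to 32.2% of all alignments tallied) were not counted, which can lower genes with close copies (Gnb1 has processed pseudogenes). The strand option used in counting is not given in the sources used here.

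CPM and quasi-likelihood tests were computed with edgeR 4.0.16 (TMM, filter on low counts, 12 mice in 1 fit with 1 mean per condition, and a separate fit of 9 against 3 mice) in R 4.3.3, and DESeq2 1.42.0 was the alternative. For edgeR, Benjamini-Hochberg adjustment was made over the 18628 genes tested, and intervals are not adjusted. DESeq2 was run without the filter on low counts, so its shares are of 33959 genes, or of 33932 for the 9 cKO mice as 1 group. Ratios used exact permutation tests (scipy 1.17.1). The deviations and slopes used log2 CPM with a prior count of 2 and genes with a mean of at least 4. GENCODE M21 named 54079 of 54146 IDs and gave positions and lengths, and promoters came from RefSeq. The code was tested on simulated counts. The libraries of a group differed by more than counting error (chi-square per degree of freedom 20.6 to 270). Separate mice were the replicates.

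Genes named are the 9 cascade genes, fixed lists of rod, cone, regulator and marker genes, the 10 genes most like the list, and the members of a list that passed a test. Of these, 1 gene is not reported here. The genes and lists were chosen with earlier results of these data known. Alternatives were other scalings, filters, thresholds and tools, a sex term, a robust fit, only the conditions compared, leaving out each mouse and other lengths; the length correction and the CCDS length were added after seeing the data. Smaller sets of genes were not tested for enrichment.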

Additional observations from a re-analysis of the deposited data

Results flagged for a closer look

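Among the 9 cKO mice, 1 mouse lay apart from the other 8 in 6 of 26 measures (the gap to the next mouse over the whole range was above 0.493, which chance gives in about 1 in 20 groups of mice; the measures share libraries). In mouse 4 of P32 these were the log2 CPM of Gngt1, 10.97 against 9.87 to 10.40 in the others, the log2 ratio of Gngt1 to Gnat1, −2.41 against −3.86 to −3.35, the log2 ratio of Sag to Gnat1, 0.00789 against −1.11 to −0.65, the log2 ratio of Gnat1 to Gnat2, 5.29 against 5.69 to 5.97, and the slope over exon length, −0.355 against −0.0746 to 0.136. In mouse 10 of P38 it was the log2 CPM of Pde6b, 11.91 against 11.29 to 11.59.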

How the results depend on the processing

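Against P30, 0 of the 9 genes were called at any age or over the 9 cKO mice under every alternative, and likewise between P38 and P34. Between P34 and P32 the count was 1 with the unadjusted p, without the filter on low counts and with DESeq2 (Pde6a each time), and 0 to 2 when single mice were left out; between P38 and P32 it was 2 with the unadjusted p, 1 without the filter, 2 with DESeq2, and 0 to 2 when single mice were left out. The count of 2 came in both without P32 replicate 6. In all, 8 of 167 counts were above 0, and 68 of 1503 log2 fold changes of single genes changed sign, all with a size of at most 0.17 in the fit as reported.

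No ratio passed in any of 182 repeats. When single mice were left out, the cKO minus P30 difference was −0.33 to −0.12 for Gngt1/Gnat1, −0.03 to 0.18 for Pde6a/Pde6b, 0.07 to 0.15 for Pde6g/Pde6b, −0.27 to −0.10 for Cnga1/Cngb1, −0.16 to 0.07 for Sag/Gnat1, 0.05 to 0.21 for Gnat1/Gnat2, 0.09 to 0.32 for Gnb1/Gnb3, −0.12 to 0.02 for Gngt1/Gngt2, 0.08 to 0.75 for Pde6a/Pde6c, 0.03 to 0.57 for Pde6b/Pde6c, 0.05 to 0.32 for Pde6g/Pde6h, −0.10 to 0.18 for Cnga1/Cnga3, 0.13 to 0.25 for Cngb1/Cngb3 and −0.07 to 0.31 for Sag/Arr3. In the order of levels per length, 4 of 9 genes kept their place with the CCDS length.

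Over all genes, the calls against P30 were 0 lower at P32 and P38 (up to 17 and 36 in other settings with all mice and adjusted p), 123 lower at P34 (46 to 345) and 10 lower over the 9 cKO mice (0 to 50), and 0 higher each time (up to 14). Between P34 and P32 they were 45 lower and 0 higher (11 to 827 and 0 to 576), between P38 and P32 0 in each direction (up to 416 and 494), and between P38 and P34 37 higher (20 to 140) and 0 lower (up to 7). Against P30 at P34, 43 to 64 genes were lower without any 1 of mice 2, 3, 7, 8 and 9, and 211 without mouse 6; over the 9 cKO mice 48 were lower without mouse 1, 12 without mouse 4 and 0 to 4 without any other mouse. Between P38 and P34, 8 to 21 genes were higher without any 1 of mice 7 to 11 and 58 without mouse 6. Leaving out P32 mouse 6 gave 1310 lower and 1416 higher between P34 and P32 and 704 lower and 1242 higher between P38 and P32, the highest counts of any mouse left out. The cause was not tested. No paired analysis was possible because the groups share no replicate numbers. With 3 mice a group the spread between mice, not depth, set the width of the intervals, which had a median of 0.80 on the log2 scale at each age against P30.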
